A study of Mus musculus with 29 samples.

Results

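The heat shock chaperone genes described here are 10 genes of the mouse: Hspa1a, Hspa1b, Hspa8 and Hsph1 of the HSP70 and HSP110 families, Hsp90aa1 and Hsp90ab1 of the HSP90 family, Dnajb1 and Dnaja1 of the HSP40 family, and Hspb1 and Cryab, which encode small heat shock proteins. They were taken by their symbols from a table of 24770 genes, and all 10 were found. RNA-seq libraries came from brown adipose tissue (BAT) and from skeletal muscle (SkM, the gastrocnemius) of male wild-type C57BL/6J mice, 1 library per mouse and tissue. The control mice ate chow freely and stayed sedentary, the calorie restriction (CR) mice had their intake lowered step by step, the exercise (EX) mice ate freely and ran on a treadmill, and the CREX mice (CE in the library titles) ran under the lowered intake. BAT had 3 control, 4 CR, 4 EX and 4 CREX libraries, and SkM had 4 control, 3 CR, 4 EX and 3 CREX libraries, 29 in all. Mice of all groups entered as young adults, were kept at ordinary laboratory temperature, were fasted for some hours before killing and were killed a day after the last run, so the first hours after a bout were not sampled. The sample records do not say whether the BAT and the SkM libraries came from the same mice.

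Heat shock proteins are chaperones: they bind proteins that are unfolded or not yet folded and keep them from clumping. HSP70 proteins hold short stretches of a client in cycles of ATP use, HSP40 proteins bring clients to HSP70 and start the cycle, HSP110 proteins such as the product of Hsph1 release the used nucleotide, and HSP90 proteins take over many clients at a later stage, among them steroid receptors and kinases. Small heat shock proteins need no ATP and hold damaged proteins in large assemblies, and in muscle they sit with the contractile fibres. When unfolded proteins build up, the transcription factor HSF1 forms a trimer and binds heat shock elements, which are repeats of the bases GAA in alternating orientation, before the inducible chaperone genes. Several of the same genes, Hspa8 and Hsp90ab1 above all, are also expressed at high levels in unstressed cells.

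The 250 bases before the transcription start are shown for the 2 HSP70 genes whose reads are hard to tell apart, for Hsph1, which had the clearest difference between groups, and for Hspb1. They were taken from RefSeq on GRCm38.p6 and are written on the strand of the gene. Capitals mark the matches to GAANNTTC or TTCNNGAA, the shortest pair of GAA repeats, where N is any base. Each of these patterns reads the same on both strands, and the 2 patterns can overlap each other.
Hspa1a, chr17:34972157-34972406, minus strand: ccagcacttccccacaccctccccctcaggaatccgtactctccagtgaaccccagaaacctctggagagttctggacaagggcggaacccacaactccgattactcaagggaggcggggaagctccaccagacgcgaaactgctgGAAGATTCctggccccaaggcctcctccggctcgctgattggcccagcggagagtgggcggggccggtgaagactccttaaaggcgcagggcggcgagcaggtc
Hspa1b, chr17:34959239-34959488, minus strand: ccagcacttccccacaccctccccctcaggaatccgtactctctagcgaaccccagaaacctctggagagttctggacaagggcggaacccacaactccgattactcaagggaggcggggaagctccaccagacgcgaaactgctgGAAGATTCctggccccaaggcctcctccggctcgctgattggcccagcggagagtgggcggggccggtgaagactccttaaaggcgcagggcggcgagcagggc
Hsph1, chr5:149636337-149636586, minus strand: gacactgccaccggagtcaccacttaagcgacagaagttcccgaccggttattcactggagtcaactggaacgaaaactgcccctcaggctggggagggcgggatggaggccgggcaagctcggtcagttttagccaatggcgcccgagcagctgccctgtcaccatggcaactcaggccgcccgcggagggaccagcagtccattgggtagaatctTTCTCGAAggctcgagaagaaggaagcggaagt
Hspb1, chr5:135887669-135887918, plus strand: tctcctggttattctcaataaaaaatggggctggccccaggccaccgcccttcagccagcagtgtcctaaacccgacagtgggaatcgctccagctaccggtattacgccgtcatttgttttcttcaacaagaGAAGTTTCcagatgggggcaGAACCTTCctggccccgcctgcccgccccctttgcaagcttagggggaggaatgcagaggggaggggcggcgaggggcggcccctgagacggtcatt

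The Hspa1a and Hspa1b stretches carried the same base at 247 of 250 positions, and each held 1 match to GAANNTTC whose first base lay 104 bases before the start. Hsph1 held 1 match to TTCNNGAA, 33 bases before the listed start used here and 54 bases before another listed start. Both of these starts lie inside the gene span, which reaches 149636498, so the match lies within the span as well. Hspb1 held 2 matches to GAANNTTC, at 97 and 117 bases. The table gave such a stretch for 6 of the 10 genes, and 5 of these, all but Dnajb1, held at least 1 match in one of their listed promoters. Among 32851 promoters of 27025 genes, 6.69% held GAANNTTC, 7.17% held TTCNNGAA and 12.8% held either. These shares are counted by promoter, while the 5 of 6 is counted by gene over any listed promoter, so they are unlike measures. All stretches shown above held a match. The promoters of Dnajb1 held none, and of those listed for Dnaja1 only the one at 40722218 to 40722467 did. No enrichment can be read from these counts. Hspa8, Hsp90aa1, Hsp90ab1 and Cryab were not in the table. A match describes the letters in this window and does not show that a factor is bound.

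The deposited values are expected counts per gene, and libraries held 21047242 to 24919377 counts in BAT and 23050918 to 23425284 in SkM. Levels are given as CPM, counts scaled to the library total by the TMM method within a tissue. All 10 genes had counts in every library, from 15 counts for Hspa1b in a BAT library upwards, so none was at the limit of detection. Hspa1a and Hspa1b lie on chromosome 17 from 34969359 to 34972156 and from 34956429 to 34959238 (GRCm38), and 38.1% of the 150-base windows of the Hspa1a transcript also occur in that of Hspa1b, so the split of their reads is uncertain and their sum is given beside them. Windows shared with any other gene made up 46% for Hspa1a, 40.5% for Hspa1b, 56% for Hspa8 and 53.4% for Hspb1. They made up 36.2% for Hsp90aa1, 20% for Dnaja1 and 10.6% for Cryab, and there were none for Hsph1, Hsp90ab1 and Dnajb1. For Hspa8, Hspb1, Hsp90aa1 and Dnaja1, the gene sharing most windows had no row of its own among the deposited values. The markers of each tissue fitted its label, with 11010.1 to 16459 summed CPM of 10 brown adipocyte markers in BAT against 377 to 933 in SkM. Muscle RNA was present in BAT to a widely varying degree: 10 markers of fast skeletal muscle summed to 3.55 CPM in control replicate 3 and 7.0 CPM in EX replicate 4, but to 6949 CPM in CREX replicate 3. Among SkM libraries, CREX replicates 2 and 3 stood apart with 125 and 64.8 summed CPM of 8 slow fibre markers, against 507 to 2284 in the libraries of the control, CR and EX groups. In a bulk library, fewer cells of a type and less RNA per cell cannot be told apart.

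On 1 scale over both tissues, Cryab, the αB-crystallin gene (chromosome 9, 50745951 to 50756636), showed the largest contrast between the tissues of the control mice among the 10 genes. Its level was 902 ± 160 CPM in SkM (SD, n = 4) and 16.8 ± 7.29 CPM in BAT (SD, n = 3), which is 53.8-fold higher in SkM. Hspb1, which encodes HSP25, was 2.89-fold higher in SkM, at 199 against 68.8 CPM. The opposite held for Hsp90aa1, the inducible HSP90 gene, for Dnajb1 and for Dnaja1, which were 3.77-fold, 3.28-fold and 2.48-fold higher in BAT. For these 5 genes no library of one tissue overlapped one of the other over all 29 libraries, whereas the libraries of the other 5 overlapped. Tissues were not tested against each other. The scale rests on the assumption that most genes are alike in both tissues.

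Per kilobase of transcript, Hspa8, the constitutive HSP70 gene, stood first in control BAT with 252 ± 25.1 CPM per kilobase, and Hsp90ab1, the constitutive HSP90 gene, second with 239.9 ± 3.91, a difference smaller than the spread between mice. In control SkM the order began with Cryab at 807 ± 143 CPM per kilobase, followed by Hspa8 at 473 ± 19.8, Hsp90ab1 at 335 ± 22.1 and Hspb1 at 220.1 ± 26.0. The heat-inducible genes Hspa1a and Hspa1b were at the other end, at 0.961 ± 0.515 and 1.21 ± 0.638 CPM per kilobase in BAT and 3.71 ± 0.346 and 1.87 ± 0.388 in SkM. They were the most variable of the HSP70 genes over the 15 BAT libraries, with a ratio of highest to lowest library of 7.61 and 14.7, against 3.14 for Hspa8.

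**Figure D1:**
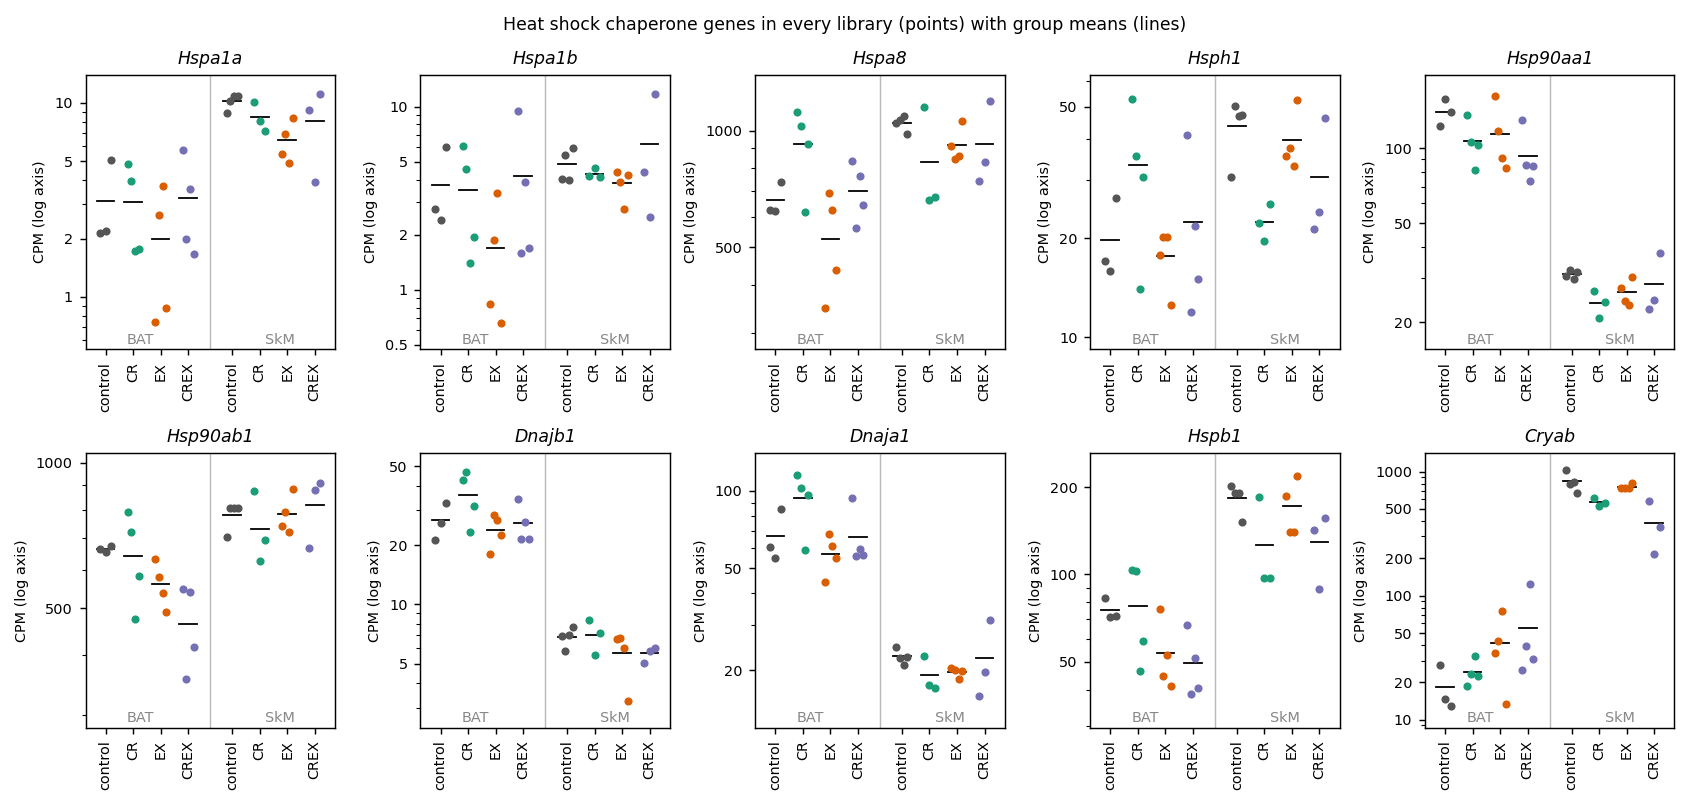
CPM on a log axis of each of the 10 genes in every library (points, coloured by group) with the mean of each group (lines), BAT on the left and SkM on the right of each panel, each tissue scaled on its own. Hsph1 and Cryab sit lower in the 3 CR than in the 4 control libraries of SkM, and in BAT the libraries of the groups overlap for nearly every gene.

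Under CR, Hsph1 fell in muscle, and 3 of the 10 genes, Hsph1, Hsp90aa1 and Cryab, were lower in all 3 CR libraries than in all 4 control libraries of SkM, as were 14.2% of all genes tested. Hsph1 (chromosome 5, 149616843 to 149636498) was measured at 22.3, 19.6 and 25.4 CPM in the CR libraries and at 30.6, 50.2, 47.0 and 47.3 CPM in the control libraries. The CR values thus lay below the lowest control value, that of replicate 1, which stood well under the other three. The fold was 1.94-fold lower in CR, with a log2 fold change of -0.96 (SE, the standard error of the fit, 0.17, edgeR adjusted p = 0.00532). A gene is counted as changed here when its adjusted p is under 0.05 and its fold above 1.5, and by this rule Hsph1 was the only one of the 10 in this comparison, while 9.6% of the 13173 genes tested were, 5.32% in the downward direction. Hsph1 passed under each of the 15 other settings tried, with log2 fold changes of -1.09 to -0.87. In the same libraries, the smooth muscle, macrophage, blood and slow fibre marker sums overlapped between CR and control. Those of 5 endothelial markers did not, at 139 to 182 CPM in CR and 222 to 290.2 CPM in control. The 10 skeletal muscle markers of the tissue itself were also apart, at 157986 to 219170 CPM in CR and 125237 to 142510.0 CPM in control. The part of the endothelial and skeletal muscle differences in the values of Hsph1, Hsp90aa1 and Cryab was not tested.

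Among the small heat shock genes, Cryab stood at 615, 532 and 557 CPM in the CR libraries of SkM and at 1035, 798, 824 and 678 CPM in the control libraries. All CR values were lower than all control values, but the fold of 1.46 was under the minimum (log2 fold change -0.55, SE 0.16, edgeR adjusted p = 0.0424). Hspb1 (chromosome 5, 135887919 to 135889563) read 185, 97.4 and 97.0 CPM in CR and 202, 192, 190.4 and 151 CPM in control, so CR replicate 1 lay among the control libraries and the others far under them. Its log2 fold change was -0.53 (SE 0.23, edgeR adjusted p = 0.154), and without CR replicate 1 it was -0.93 (adjusted p = 0.00101). In the same fit without that library Cryab and Hspa8 also passed, at -0.62 and -0.65, with adjusted p = 0.0244 and 0.00285. Over the 15 other settings tried, Cryab passed in 3, Hspb1 in 2 and Hspa8 in 1. The Hspb1 value ran from -0.93 to -0.37 over these settings.

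For the HSP90 pair in SkM, Hsp90aa1 (chromosome 12, 110691036 to 110696395) was at 26.7, 20.7 and 24.2 CPM in CR and at 30.8, 32.5, 29.7 and 31.9 CPM in control. The groups did not overlap, with a fold of 1.30 (log2 fold change -0.38, SE 0.11, edgeR adjusted p = 0.0452). Hsp90ab1, in contrast, gave 627 to 873 CPM in CR and 703 to 807 CPM in control, and the CR libraries lay on both sides of the control libraries. Over the whole table, 14.0% of genes had an adjusted p under 0.05 whatever their fold. Hspa8 (chromosome 9, 40801276 to 40805202) had 1149, 662 and 675 CPM in CR against 979 to 1094 CPM in control, again with CR replicate 1 apart from the others. For Hspa1a, Hspa1b, Dnajb1 and Dnaja1 the log2 fold changes ran from -0.26 to 0.04, with adjusted p from 0.245 to 0.906.

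In trained mice the same restriction, CREX against EX, left none of the 10 genes changed by the edgeR test in SkM, where 8.87% of 13112 genes were, with 1 at an unadjusted p under 0.05 (32.3% of all genes) and 1 called by DESeq2 (1491 of 21238 genes), Cryab in both cases. Cryab read 576, 215 and 359.6 CPM in CREX and 742, 732, 738 and 811 CPM in EX. No CREX value reached an EX value, as for 14.5% of genes lower in CREX, and the lowest 2 were in the libraries with few slow fibre markers, replicates 2 and 3. The log2 fold change was -0.98 (SE 0.28, edgeR adjusted p = 0.0545), and with the slow fibre score of each library in the fit it was -0.65 (adjusted p = 0.394), where that fit called 52 of all 13112 genes in place of 1163. Hsph1 was at 21.3, 23.9 and 46.4 CPM in CREX and 35.5, 37.4, 33.0 and 52.5 CPM in EX, with CREX replicate 3 alone among the EX values. Its log2 fold change of -0.37 (SE 0.29, edgeR adjusted p = 0.416) became -0.81 (adjusted p = 0.0422) when that library was left out. Of the 15 other settings tried, Hsph1 passed in this 1 alone, with values from -0.92 to -0.17. The CREX and CR comparisons share no libraries, so their values stand side by side as separate measurements.

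Taking all 14 SkM libraries in 1 fit, with CR and EX as 2 terms, 2 of the 10 genes fell with CR, Cryab and Hsph1, against 13.5% of 13212 genes changed in either direction and 7.9% downward. The log2 fold change of Cryab was -0.76 (SE 0.17, edgeR adjusted p = 0.00298) and that of Hsph1 was -0.66 (SE 0.20, adjusted p = 0.0196). Hspb1, at -0.47 (SE 0.17, adjusted p = 0.0480), was under the fold minimum, and 33.9% of genes had an adjusted p under 0.05 whatever their fold. Cryab passed in all 21 other settings and Hsph1 in 20 of 21, the exception being the fit without CR replicate 2 (log2 fold changes down to -0.58, largest adjusted p = 0.0503). With the slow fibre score in the fit Cryab was at -0.63 (adjusted p = 0.0116) and Hsph1 at -0.92 (adjusted p = 0.00336). The 8 slow fibre markers were all lower with CR in this fit, with a median log2 fold change of -1.05, although none of them passed. Their sum was lower in trained mice only, at 64.8 to 776 CPM in CREX against 507 to 2167 CPM in EX. In sedentary mice it was 1946 to 2245 CPM in CR, within the 1353 to 2284 CPM of control.

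**Figure D2:**
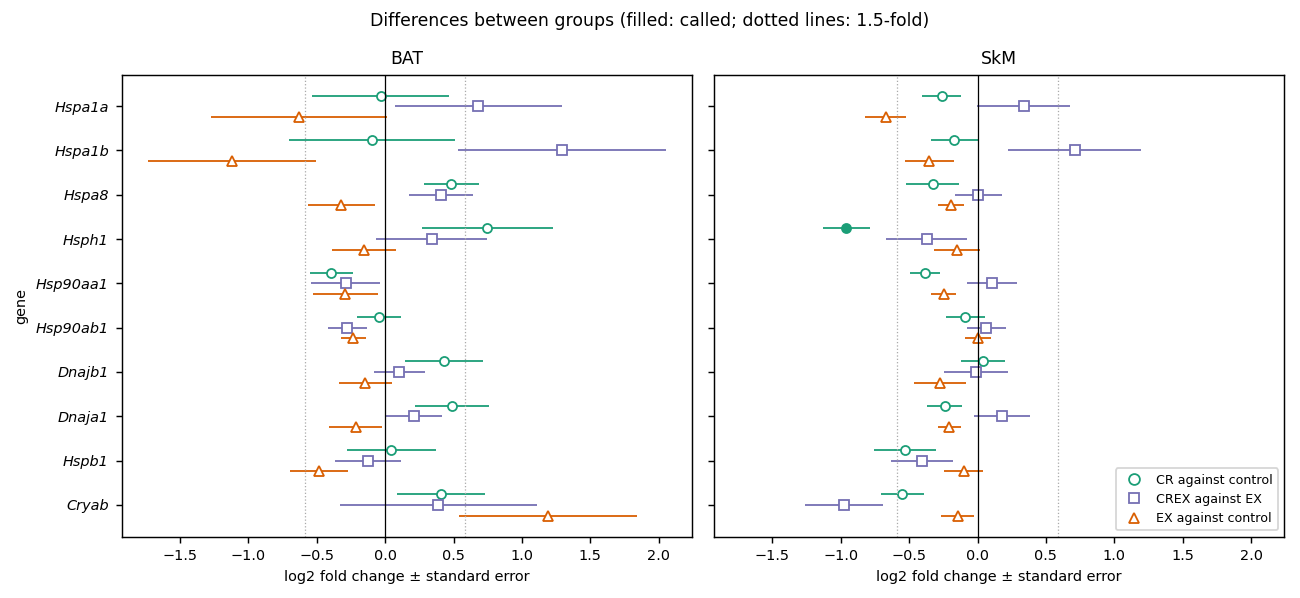
Log2 fold changes with standard errors of the 10 genes in BAT (left) and SkM (right) for CR against control, CREX against EX and EX against control; filled marks passed the test and dotted lines mark the fold of 1.5. Hsph1 under CR in SkM, at -0.96, is the only filled mark, and in BAT the same gene lies at 0.75.

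Training alone changed none of the 10 genes in SkM by the edgeR test, where 0.0775% of 12907 genes passed, with 3 at an unadjusted p under 0.05 (6.85% of all genes) and 1 called by DESeq2 (49 of 21427 genes). The gene called was Hspa1a, the heat-inducible HSP70 gene, with 5.43, 6.92, 4.93 and 8.38 CPM in EX and 8.83, 10.2, 10.8 and 10.8 CPM in control. Every EX value was lower than every control value, by a log2 fold change of -0.67 (SE 0.15, edgeR adjusted p = 0.152, DESeq2 adjusted p = 0.0220). Summed with Hspa1b, whose reads it shares, the pair stood at -0.56 (SE 0.14, edgeR adjusted p = 0.188). Dnaja1 did not overlap either, at 18.4 to 20.4 CPM in EX and 21.0 to 24.7 CPM in control (log2 fold change -0.21, SE 0.08, edgeR adjusted p = 0.638), and 2.21% of all genes tested were lower without overlap. Between CREX and CR, where edgeR called 0.0% of 13068 genes, none of the 10 passed in edgeR or DESeq2 and none had an unadjusted p under 0.05 (3.65% of all genes). The interaction of CR and EX passed for none in either tool, where edgeR called 0.0% of 13610 genes, with 1 unadjusted p under 0.05 (4.92% of all genes), that of Hsp90aa1 (log2 difference 0.51, SE 0.23, edgeR adjusted p = 0.941). Without CREX replicate 3 this difference was 0.23, and with the slow fibre score in the fit it was 0.08.

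In BAT, CR changed none of the 10 genes by edgeR or DESeq2, where edgeR called 10.7% of 13323 genes, and 2 of them, Hspa8 and Hsp90aa1, had an unadjusted p under 0.05 (35.8% of all genes). All CR and control libraries overlapped for all 10. Hspa8 was at 1120.0, 1031, 618 and 927 CPM in CR and at 625, 619.9 and 738 CPM in control, so replicate 3 alone lay with the control libraries. Its log2 fold change was 0.48 (SE 0.20, edgeR adjusted p = 0.134), and 0.63 (adjusted p = 0.000905) without CR replicate 3. Of the 15 other settings tried, Hspa8 passed in this 1 alone, with values from 0.37 to 0.63. Hsph1 followed the same order, with 52.9, 35.4, 14.0 and 30.7 CPM in CR against 17.1, 15.9 and 26.4 CPM in control (log2 fold change 0.75, SE 0.48, edgeR adjusted p = 0.327), and with 1 library left out the value ran from 0.43, without CR replicate 1, to 1.02, without control replicate 3. Hsp90aa1 was the gene with the most negative value, -0.39 (SE 0.16, adjusted p = 0.115), at 135, 105, 81.8 and 103 CPM in CR and 123, 157 and 139 CPM in control.

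The HSP40 genes encode partners of HSP70. In BAT, Dnaja1 (chromosome 4, 40722468 to 40734965) read 116, 103, 59.1 and 96.5 CPM in CR and 60.2, 54.8 and 84.9 CPM in control, and Dnajb1 (chromosome 8, 83608175 to 83612653) read 42.7, 46.6, 23.2 and 31.4 CPM in CR and 21.2, 26.0 and 32.8 CPM in control. CR replicate 3 was again the lowest of its group, and without it Dnaja1 passed, at 0.65 (edgeR adjusted p = 0.0283). The log2 fold changes were 0.49 (SE 0.27, edgeR adjusted p = 0.246) and 0.43 (SE 0.28, adjusted p = 0.328). With the skeletal muscle score of each library in the fit both passed, at 0.62 for Dnaja1 (adjusted p = 0.0424) and 0.61 for Dnajb1 (adjusted p = 0.00407). In the same fit Hspa8 stood at 0.58 (adjusted p = 0.0132), just under the fold minimum. CR replicate 3 had the most muscle RNA of its group, 1609 summed CPM of the 10 markers. Whether muscle RNA moved these genes was not tested. Over the 15 other settings tried, Dnaja1 passed in 2 and Dnajb1 in 1.

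In trained mice, CREX against EX, none of the 10 genes changed in BAT by edgeR or DESeq2, none had an unadjusted p under 0.05 (25.6% of all genes), and edgeR called 4.48% of 13251 genes. Hspa8 was at 833, 562, 764 and 643 CPM in CREX and at 348, 692, 625 and 438 CPM in EX (log2 fold change 0.41, SE 0.23, edgeR adjusted p = 0.318), with overlapping libraries. The fit over all 15 BAT libraries called none of the 10 for CR in edgeR or DESeq2, against 11.4% of 13530 genes, with 1 unadjusted p under 0.05 (44.0% of all genes). That was Hspa8 at 0.44 (SE 0.16, edgeR adjusted p = 0.0481), which passed the p threshold, as 33.7% of all genes did, without the fold.

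Training in BAT gave no changed gene among the 10 by edgeR or DESeq2, where edgeR called 0.0% of 13407 genes between EX and control, with 1 unadjusted p under 0.05 (7.25% of all genes). That gene was Hsp90ab1 (chromosome 17, 45567778 to 45573261), at 633, 582, 538 and 490.1 CPM in EX and 665, 652 and 673 CPM in control. The groups did not overlap, as for 4.96% of genes that were lower in EX, and the log2 fold change was -0.23 (SE 0.09, edgeR adjusted p = 0.655). In the fit over all BAT libraries 9 of the 10 genes had a negative value for EX and 5 of the 10 an unadjusted p under 0.05, against 10.6% of all genes, and none an adjusted p under 0.05. These 5 were Hsp90ab1 (-0.36), Hspb1 (-0.58), Hspa8 (-0.36), Dnaja1 (-0.37) and, as the only positive value, Cryab (1.18). Their adjusted p ran from 0.295 to 0.468 with edgeR. CREX against CR called none of the 10 in edgeR or DESeq2, against 0.00763% of 13112 genes, with 1 unadjusted p under 0.05 (7.63% of all genes), that of Hsp90ab1 (log2 fold change -0.47, SE 0.20, edgeR adjusted p = 0.649), and the interaction called none in either tool (0.0% of 13922 genes in edgeR), with no unadjusted p under 0.05 (5.75% of all genes).

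In BAT, the highest Cryab values came from libraries with much muscle marker RNA and the lowest from libraries with little. Without control replicate 1, Cryab passed under CR against control, at 0.81 (edgeR adjusted p = 0.0496), against 0.41 (adjusted p = 0.413) with all libraries. Of the 15 other settings tried, it passed in this 1 alone. Cryab was at 27.5, 14.7 and 12.9 CPM in control, 18.7, 23.4, 32.5 and 22.6 CPM in CR, 34.5, 43.1, 75.2 and 13.3 CPM in EX and 25.2, 39.3, 124 and 30.9 CPM in CREX. The highest value, in CREX replicate 3, and the next, in EX replicate 3, came from libraries with 6949 and 4017 summed CPM of the 10 muscle markers, and the 2 lowest, in control replicate 3 and EX replicate 4, from those with 3.55 and 7.0. EX replicate 2 broke this order, with 4244 summed CPM of the markers and 43.1 CPM of Cryab. With the muscle score in the fit over all BAT libraries the EX value of Cryab was 0.26 (SE 0.35, edgeR adjusted p = 0.992) in place of 1.18. The 10 muscle markers themselves had positive EX values in that fit, 10 of 10, with a median of 2.60 on the log2 scale, and none passed. Whether muscle RNA or other differences between these libraries move Cryab was not tested.

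**Figure D3:**
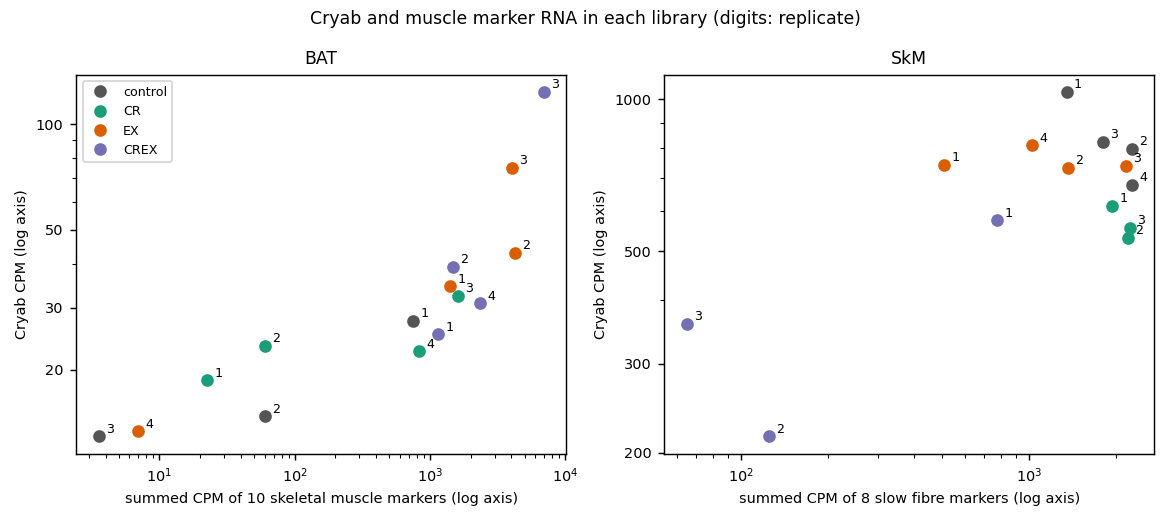
Cryab CPM of each library (points, coloured by group, digits give the replicate) against the summed CPM of 10 skeletal muscle markers in BAT (left) and of 8 slow fibre markers in SkM (right), all axes on a log scale. In BAT the highest Cryab value, 124 CPM, is at the highest muscle marker sum, and in SkM the CREX libraries 2 and 3, at 215 and 359.6 CPM, are far to the left of the others.

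Set side by side, the CR effects on Hspa8 and Hsph1 had opposite signs in the tissues, and the difference between the tissues was tested in a single fit that held the CR and control groups of BAT and SkM, taking all libraries as separate mice. None of the 10 genes passed with edgeR, where 6.29% of 14369 genes did, with 4 at an unadjusted p under 0.05 (23.2% of all genes) and 3 called by DESeq2 (1193 of 23396 genes). The largest difference (SkM effect minus BAT effect) was that of Hsph1, at -1.71 on the log2 scale (SE 0.50, edgeR adjusted p = 0.0608, DESeq2 adjusted p = 0.00191). Cryab followed at -0.96 (SE 0.35, edgeR adjusted p = 0.107), then Hspa8 at -0.81 (SE 0.29, adjusted p = 0.0949) and Dnaja1 at -0.73 (SE 0.28, adjusted p = 0.125). Without BAT CR replicate 3, Hsph1 (-1.98), Hspa8 (-0.98) and Dnaja1 (-0.92) passed, without BAT control replicate 1 Cryab did (-1.40), and without SkM CR replicate 1 Hspa8 did (-1.14). Over the 20 other settings tried, Hsph1 and Hspa8 passed in 3 each, Cryab in 2 and Dnaja1 in 1. For CREX against EX no difference between the tissues passed in edgeR or DESeq2 and none had an unadjusted p under 0.05 (22.2% of all genes), and edgeR called 4.57% of 14410 genes.

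The 72 other chaperone and co-chaperone genes of the lists, 68 of them tested in each tissue under CR, held a few that changed. In SkM, CR raised 1 and lowered 4, where 9.6% of all genes changed. The 1 that rose was Fkbp5, which encodes an HSP90 co-chaperone at steroid receptors. Bag2, whose product is a nucleotide exchange factor and inhibitor on HSP70, fell from 17.1 ± 1.54 CPM in control (SD, n = 4) to 9.05 ± 1.33 CPM in CR (SD, n = 3), by a log2 fold change of -0.91 (SE 0.13, edgeR adjusted p = 0.00159). Dnaja4, an HSP40 gene, fell from 82.3 ± 4.42 to 48.6 ± 6.07 CPM (-0.76, SE 0.11, adjusted p = 0.00213). Hspb8, a small heat shock gene whose product works with BAG3 in muscle, fell by 0.71 on the log2 scale (adjusted p = 0.00506), and Hspa1l, an HSP70 gene next to Hspa1a, fell by 0.70 (adjusted p = 0.00606).

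In CREX against EX of SkM, 2 of the 4 fell again, Bag2 at -1.04 (SE 0.11, edgeR adjusted p = 0.00168) and Dnaja4 at -0.85 (SE 0.21, adjusted p = 0.0313), with Fkbp5 rising. The Dnaja4 call was lost in 6 of the 7 fits that left out 1 library. The fit over all SkM libraries also called Hspb6, the small heat shock gene for HSP20, at -0.69 (SE 0.17, adjusted p = 0.00572). The median log2 fold change under CR against control of the list tested was -0.0057 in SkM and 0.115 in BAT, beside 0.0050 and 0.0045 over all genes tested. The median of the 10 heat shock genes in that comparison was -0.30 in SkM and 0.23 in BAT. For CREX against EX it was 0.035 in SkM and 0.28 in BAT. In the CR fits over all libraries of a tissue it was -0.079 in SkM and 0.34 in BAT.

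In BAT, CR raised 2 of the 68 tested, Fkbp5 and Dnaja4, and lowered 1, Hspa12a, where 10.7% of all genes changed. Dnaja4 rose from 12.6 ± 1.83 CPM in control (SD, n = 3) to 20.2 ± 1.97 CPM in CR (SD, n = 4), by 0.67 on the log2 scale (SE 0.12, edgeR adjusted p = 0.00338). Its direction was thus opposite in BAT and SkM, and the difference of the CR effects passed, at -1.44 (SE 0.15, adjusted p = 9.28e-05), as it did for CREX against EX, at -1.27 (SE 0.32, adjusted p = 0.0368), the latter lost in 11 of 15 fits that left out 1 library. Hspa12a, a distant relative of the HSP70 genes, fell from 13.8 ± 3.17 to 4.22 ± 0.544 CPM in BAT (-1.71, SE 0.16, adjusted p = 0.000164) and in CREX against EX by 1.08 on the log2 scale (adjusted p = 0.00211). The chaperonin TRiC, the prefoldins and the mitochondrial chaperones had no changed gene in CR against control or CREX against EX of either tissue.

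The gene of the main heat shock factor, Hsf1, did not pass under CR in either tissue. Its level ranged from 13.9 to 17.4 CPM over all BAT libraries and from 37.4 to 50.8 CPM over all SkM libraries, and its CR value in the fit over all libraries of the tissue was 0.03 (SE 0.06, edgeR adjusted p = 0.704) in BAT and -0.03 (SE 0.09, adjusted p = 0.808) in SkM. Its RNA level does not report the activity of the protein, which is set after translation. Hsf4, a relative of Hsf1, rose in CREX against EX of SkM, from 8.05 ± 1.33 CPM (SD, n = 4) to 12.6 ± 2.80 CPM (SD, n = 3), by 0.65 (SE 0.18, edgeR adjusted p = 0.0425), a call lost in 6 of the 7 fits that left out 1 library. No other heat shock factor gene of the list passed under CR.

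The cold-inducible RNA-binding genes Rbm3 and Cirbp, whose RNA is known to rise when cells cool, went the other way from the chaperones that fell in SkM. In BAT under CR against control they rose, and the median of the 10 heat shock genes was positive too, at 0.23. A link of these genes to the chaperones or to body temperature was not tested. Rbm3 (chromosome X, 8138975 to 8145880) was at 109, 85.6 and 91.9 CPM in CR and at 40.9, 31.1, 33.2 and 25.5 CPM in control SkM. The groups were far apart, by 1.55 on the log2 scale (SE 0.16, edgeR adjusted p = 0.000391), and CREX exceeded EX by 1.35 (SE 0.19, adjusted p = 0.00673). In BAT, Rbm3 was at 70.5, 70.4, 70.3 and 74.5 CPM in CR and at 37.8, 44.5 and 44.9 CPM in control, a rise of 0.75 (SE 0.08, adjusted p = 0.000222). CREX against EX in BAT stood at 0.41 (SE 0.08, adjusted p = 0.0123), under the fold minimum, with CREX libraries of 64.8 to 76.6 CPM all above EX libraries of 47.4 to 54.9 CPM. The CR effect on Rbm3 was larger in SkM than in BAT, by 0.79 for CR against control (SE 0.18, adjusted p = 0.0157) and by 0.94 for CREX against EX (SE 0.21, adjusted p = 0.0206).

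Cirbp (chromosome 10, 80165990 to 80172786) rose in SkM with CR, from 12.7 to 16.4 CPM in control to 20.4 to 26.7 CPM in CR (log2 fold change 0.76, SE 0.13, edgeR adjusted p = 0.00506), and from 13.8 to 19.4 CPM in EX to 20.6 to 28.0 CPM in CREX (0.60, SE 0.15, adjusted p = 0.0316), the latter call lost in 5 of 7 fits that left out 1 library. In BAT it was at 15.7, 16.7, 11.1 and 11.4 CPM in CR and 8.35, 10.1 and 9.74 CPM in control. No library of these groups overlapped, but the change of 0.55 was under the fold minimum (SE 0.16, adjusted p = 0.0360), and CREX against EX gave 0.25 (SE 0.14, adjusted p = 0.273).

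**Figure D4:**
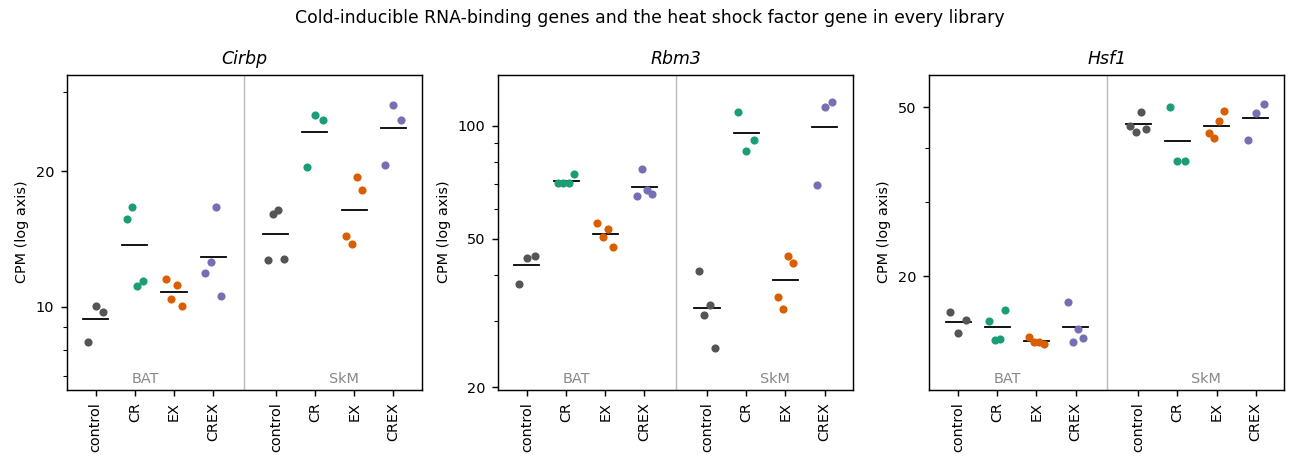
CPM on a log axis of Cirbp, Rbm3 and Hsf1 in every library (points, coloured by group) with group means (lines), BAT on the left and SkM on the right of each panel, each tissue scaled on its own. Rbm3 is at 85.6 to 109 CPM in CR and 25.5 to 40.9 CPM in control SkM, while Hsf1 lies between 13.9 and 17.4 CPM in BAT.

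Several libraries were high or low for many of the 10 genes at once. In BAT, CR replicate 1 held the highest value of 5 genes (Hspa8, Hsph1, Hsp90ab1, Dnaja1 and Hspb1) and CREX replicate 1 those of Hspa1a and Hspa1b, at 5.71 and 9.50 CPM. EX replicate 1 held the lowest value of 4 genes, while its Hsp90aa1, at 162 CPM, was the highest in BAT. In EX replicate 4 all 10 genes lay under the BAT mean, while 9 lay above it in CR replicate 1 and in control replicate 3. In SkM, 7 to 10 of the genes lay above the tissue mean in each control library and 8 in CREX replicate 3. In EX replicate 4 of SkM 7 did, with the highest Hsph1 and Hspb1 of the tissue, and in CR replicate 1 of SkM 6 did. CREX replicate 3 held the highest value of 6 genes (Hspa1a, Hspa1b, Hspa8, Hsp90aa1, Hsp90ab1 and Dnaja1), among them 11.8 CPM of Hspa1b against 2.50 to 5.95 CPM in all other SkM libraries. The same library held 1317 summed CPM of 16 immediate early genes, which respond within minutes to stimulation, against 272 to 407 in the others, and its part in the chaperone values was not tested beyond leaving the library out.

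**Figure D5:**
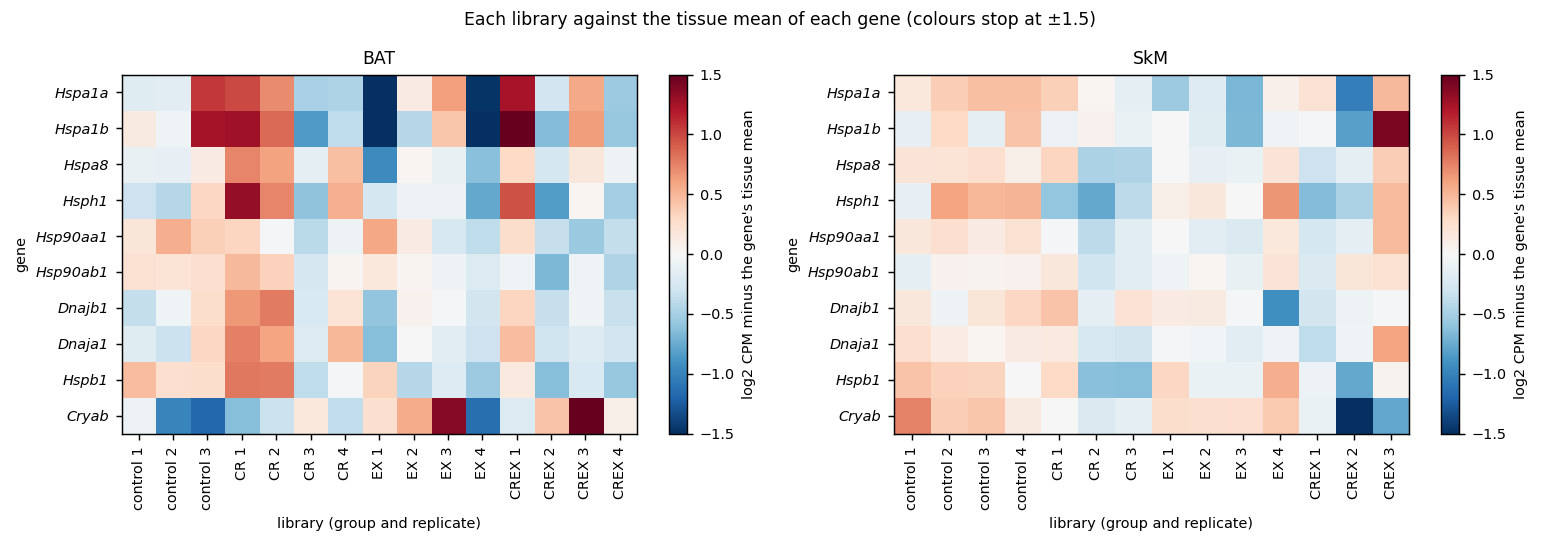
Log2 CPM of each of the 10 genes in each library minus the mean of the gene over its tissue, for BAT (left) and SkM (right), red for higher and blue for lower. Among those red for most genes are CR libraries 1 and 2, CREX library 1 and control library 3 of BAT. In SkM they include the control libraries, CREX library 3 and EX library 4. Cryab has a pattern of its own in BAT.

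The genes whose profile over the libraries was most like the mean profile of the 10 were sought by Pearson's r among genes with a mean of at least 10 CPM, as a description over libraries that share their scaling. In BAT these were P4ha1 (r = 0.940), Ahsa2 (0.895), Rps3 (0.860), Ptges3 (0.859) and Cbfa2t2 (0.854), of 6838 genes over 15 libraries. In SkM they were Junb (0.916), Tnfrsf12a (0.903), Klhl30 (0.846), Krcc1 (0.828) and Ptges3 (0.823), of 6296 genes over 14 libraries. Ptges3, which encodes the HSP90 co-chaperone p23, was in both lists. It ranged from 36.8 to 52.0 CPM in BAT and from 20.1 to 33.6 CPM in SkM. The 14 SkM libraries include CREX replicate 3, which held the highest value of 6 of the 10 genes and 1317 summed CPM of immediate early genes. The weight of that library in the SkM r values was not tested.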

How the data were processed

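RNA of BAT and SkM was sequenced in paired 150-base reads on a BGISEQ-500. The authors trimmed reads with Trim Galore, aligned them with STAR 2.7.10a to mm10 and deposited expected counts per gene symbol from RSEM (1.2.28 in the submitters' processing notes). The annotation is not given in the sources used here. These expected counts, estimated and partly shared among similar genes, were rounded to whole numbers. Symbols are one row each, so reads of near-identical genes depend on the split by RSEM.

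Groups followed the sample titles. edgeR 4.0.16 (R 4.3.3, TMM scaling, filterByExpr, robust quasi-likelihood test) was fitted over all genes in 16 comparisons, and Benjamini-Hochberg adjusted p under 0.05 with a fold above 1.5 counted as changed. Fold changes carry standard errors from the test statistic. Terms for CR and EX were also fitted over all groups of a tissue, and differences between tissues over both. Muscle scores used a pseudocount of 1 CPM. The fits were also run on simulated counts with known fold changes and the same spread for every gene. Those counts held no outlying libraries and no varying muscle RNA, so they do not bear on either. The 10 genes and all lists were chosen with earlier results of these data known. Named genes were the 10 and the listed genes that passed in CR comparisons, with Hsf1, Cirbp and Rbm3. Alternatives were DESeq2 1.42.0, other filters, a replicate block, marker scores as covariates, no fold minimum and each library left out. The titles number separate samples, and p-values measure the spread between them.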

Additional observations from a re-analysis of the deposited data

Results flagged for a closer look

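Of 50 groups of 4 libraries examined for a single outlying value, 5 held one, and chance alone gives about 1 in 20. In SkM control replicate 1, Hsph1 was low at 30.6 CPM and Hsp90ab1 was low at 703 CPM. In SkM EX replicate 4, Cryab was high at 811 CPM. In BAT CREX replicate 1, Dnaja1 was high at 93.8 CPM, and in BAT CREX replicate 3, the library with the most muscle RNA, Cryab was high at 124 CPM.

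The effect of CR against control differed between the tissues (SkM effect minus BAT effect, log2 scale, edgeR) for Hspa12a by 1.63, for Dnaja4 by -1.44, for Hspb8 by -0.74 and for Rbm3 by 0.79. The effect of CREX against EX differed for Dnaja4 by -1.27, for Bag2 by -0.86 and for Rbm3 by 0.94.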

How the results depend on the processing

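The number of the 10 genes called moved with several choices. In BAT under CR against control it was 0, but 2 with the muscle score as covariate and 0 to 2 when 1 library was left out. In the BAT fit for CR it was 0, and 1 without a fold minimum. In SkM under CR against control it was 1, but 3 without a fold minimum, 3 with the replicate block and 1 to 4 when 1 library was left out. In SkM for CREX against EX it was 0, but 1 with DESeq2, 1 with 1 fit over all groups and 0 to 1 when 1 library was left out, and for EX against control it was 0, but 1 with DESeq2, 1 without a filter and 0 to 1. The SkM fit for CR gave 2, and 1 to 3 when 1 library was left out. The tissue difference of CR gave 0, but 3 with DESeq2, 1 with at least 10 counts in every library and 0 to 3 when 1 library was left out. The CR value of Hsf1 changed sign without BAT CREX replicate 1, to -0.0082, and in SkM without CR replicate 2 or 3, to 0.015 or 0.0135, and with 1 library left out it ran from -0.0082 to 0.0583 in BAT and from -0.0879 to 0.015 in SkM. The replicate numbers were not used as pairs in the main fits. Same-numbered samples correlated at -0.471 to 0.497, and in each comparison at least 1 pair was under 0.1. So few pairs cannot show whether the numbers carry a pairing. The replicate block changed the member count of no other comparison. The cause of these shifts was not tested. With 3 or 4 libraries a group, small differences in the scarce Hspa1a and Hspa1b were not resolved.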
